A study of Arabidopsis thaliana with 12 samples.

Results

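MCCA, MCCB, ETFALPHA and ETFQO are 4 nuclear genes of Arabidopsis thaliana whose products work in mitochondria, in the breakdown of leucine and in the electron transfer that this breakdown feeds. They were chosen by name, among the genes of methylcrotonyl-CoA carboxylase and of the electron transfer flavoprotein system. The choice was made with earlier results of these data known. All were read through probe sets annotated to exactly 1 gene. ETFBETA of the same system also had such a probe set but was not among the 4 chosen, and is described beside ETFALPHA. Each of the 4 had 1 such probe set, and together they are 4 of the 13350 gene loci that could be read in this way on the array. All 4 probe sets passed the filter on dim values.

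Seeds were dissected from siliques and compared in 4 groups: homozygous abi3-6 mutants at 16 days after flowering (DAF), wild-type Col-0 plants at 16 DAF, abi3-6 mutants at 12 DAF and wild-type Col-0 plants at 12 DAF. ABI3 is a transcription factor of seed maturation, and abi3-6 is a mutant allele of it. Each group held 3 samples from separate batches of plants, each on its own 1-colour Affymetrix array, 12 arrays in all. No probe set was annotated to ABI3 alone, so the mutated gene itself is not reported here.

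In plants, leucine is taken apart in mitochondria. An aminotransferase and the branched-chain keto acid dehydrogenase complex make isovaleryl-CoA, which isovaleryl-CoA dehydrogenase (IVD) oxidises. Methylcrotonyl-CoA carboxylase, built of the biotin-carrying alpha subunit MCCA and the carboxyltransferase beta subunit MCCB, then acts on the product, and later steps yield acetoacetate and acetyl-CoA. The electrons taken by IVD, and those taken by the 2-hydroxyglutarate dehydrogenase D2HGDH, pass to the electron transfer flavoprotein, a dimer of ETFALPHA and ETFBETA. ETFQO hands them on to ubiquinone in the respiratory chain. In leaves this route is known for supplying electrons when carbohydrate runs short.

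Values are the deposited expression values on a log2 scale, on which 1 unit is a factor of 2 in signal. Changes are differences of group means with their standard error (SE), tested with limma across all 14873 probe sets kept and adjusted after Benjamini and Hochberg, with a threshold of 0.05. The seed samples were bulk tissue, in which fewer cells of a type and less RNA per cell cannot be told apart.

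Across the series, arrays of one group correlated at 0.990 to 0.996 over the probe sets, and array medians lay between 4.05 and 4.46. The array descriptions of the 16 DAF samples share a prefix that those of the 12 DAF samples lack. What the prefix marks is not stated, so age could not be told apart from it. The wild-type samples of 12 DAF carry an extra leading number in their titles that the other 3 groups lack. Its meaning is not given, and whether it marks a difference that bears on the genotype comparison at 12 DAF was not tested. Centring the arrays on their medians moved the median change of all probe sets tested at 16 DAF to -0.39, against -0.03 as deposited, and at 12 DAF to -0.13, against -0.0033. Quantile normalization moved it to -0.12 at 16 DAF and to -0.05 at 12 DAF. Marker signals were summed on the linear scale and the sum is given as log2, so the brightest markers weigh most. The maturation markers measured, 4 of 10 listed, summed to 9.45 to 11.2 in abi3-6 against 15.2 to 15.3 in wild type at 16 DAF. At 12 DAF they summed to 14.0 to 14.2 in abi3-6 against 15.7 to 15.8 in wild type. One of them, the locus AT2G25890, was dim on all abi3-6 arrays, at least 978-fold lower than in wild type at 16 DAF. The seed coat markers measured, 2 of 7 listed, summed to 11.1 to 11.4 in abi3-6 against 9.62 to 9.95 in wild type at 16 DAF, and at 12 DAF to 10.3 to 10.7 in abi3-6 against 9.84 to 10.1 in wild type. These sums follow ARA12, which was higher in abi3-6 by 1.45 ± 0.15 at 16 DAF (limma adjusted p = 1.46e-06) and by 0.52 ± 0.15 at 12 DAF (limma adjusted p = 0.0127). At 12 DAF ARA12 no longer passed when the arrays were quantile normalized (0.36), or when abi3-6 replicate 1 of that age was left out (0.40). The other marker, BAN, lay near or below the dim limit and did not pass, with 0.16 at 16 DAF and -0.10 at 12 DAF. The silique wall marker ALC, 1 of 5 listed, read 3.62 to 4.75 in abi3-6 and 2.70 to 3.30 in wild type at 16 DAF, and at 12 DAF 2.92 to 3.18 in abi3-6 and 3.60 to 4.63 in wild type. In the lower group of each age, 1 of 3 arrays reached the dim limit of 3.16, so ALC was near that limit. The endosperm marker AGL62, 1 of 5 listed, was dim on all 12 arrays. The array carries 4 pairs of control probe sets near the 3′ and the 5′ end of a transcript, 2 for actin and 2 for GAPDH, and the log2 difference of 3′ minus 5′ was taken for each (mean ± SD, n = 3 arrays). In the first actin pair it was 0.37 ± 0.03 in abi3-6 and -0.21 ± 0.02 in wild type at 16 DAF, and at 12 DAF 0.37 ± 0.09 in abi3-6 and -0.37 ± 0.17 in wild type. In the second actin pair it was 5.04 ± 0.35 in abi3-6 and 4.71 ± 0.14 in wild type at 16 DAF, and at 12 DAF 5.22 ± 0.08 in abi3-6 and 4.89 ± 0.14 in wild type. In the first GAPDH pair it was 0.18 ± 0.12 in abi3-6 and -0.07 ± 0.41 in wild type at 16 DAF, and at 12 DAF 0.07 ± 0.16 in abi3-6 and 0.07 ± 0.24 in wild type. In the second GAPDH pair it was 1.67 ± 0.06 in abi3-6 and 2.08 ± 0.13 in wild type at 16 DAF, and at 12 DAF 1.92 ± 0.30 in abi3-6 and 2.36 ± 0.28 in wild type. The actin pairs were thus higher and the second GAPDH pair lower on average in abi3-6. The maturation and seed coat sums moved with genotype at both ages, and ALC was higher in abi3-6 at 16 DAF and lower at 12 DAF. The part of these markers and controls in the results below was not tested.

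**Figure D1:**
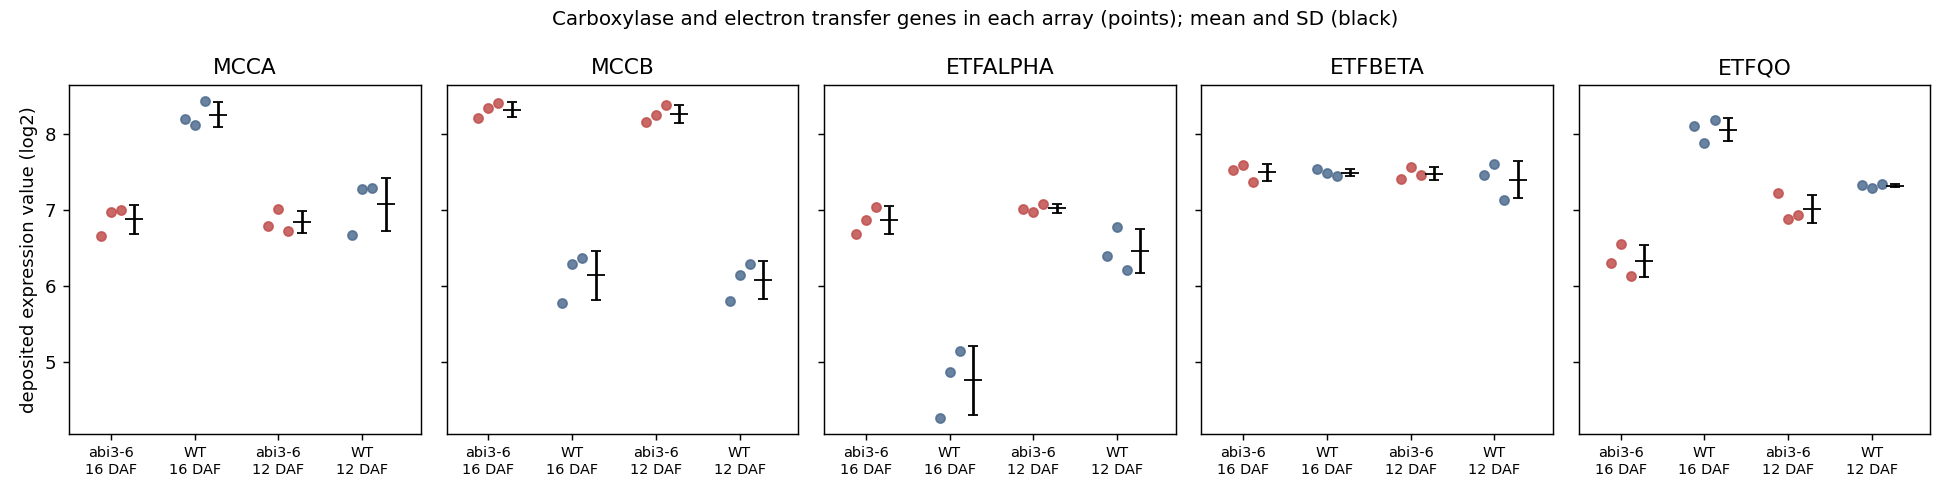
Deposited expression value (log2, vertical axis, not starting at 0) of the carboxylase genes MCCA and MCCB and of ETFALPHA, ETFBETA and ETFQO on each array. Points are arrays (red abi3-6, blue wild type), and the black marks are the mean and SD of 3 arrays. At 16 DAF, MCCB and ETFALPHA lie higher in abi3-6 than in wild type, MCCA and ETFQO lie lower, and ETFBETA lies at 7.37 to 7.59 in both genotypes.

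The question of the genotype comparison is how seeds that lack normal ABI3 function differ from wild-type seeds at each age. At 16 DAF the 2 subunit genes of the carboxylase moved in opposite directions in abi3-6, and so did ETFALPHA and ETFQO of the electron transfer step. MCCB and ETFALPHA were higher in abi3-6 and MCCA and ETFQO were lower. All 4 changes passed the test, 2 in each direction, where 70.2% of all probe sets tested passed, 35.6% higher and 34.6% lower. At 12 DAF 2 of the 4 passed, MCCB and ETFALPHA, both higher in abi3-6, where 50.8% of probe sets passed, 27.1% higher and 23.7% lower. For each of the 4 genes the genotypes did not overlap at 16 DAF, which held for 74.9% of probe sets. The split of all calls moved with the scaling: 50.7% of those at 16 DAF were higher in abi3-6 as deposited and 35.4% after median centring, and at 12 DAF 53.3% and 42.8%. After quantile normalization it moved less, to 45.8% at 16 DAF and 48.5% at 12 DAF.

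MCCB codes for the beta subunit of the carboxylase. On the 3 abi3-6 arrays at 16 DAF it read 8.21, 8.34 and 8.40, against 5.78, 6.29 and 6.37 on the wild-type arrays. The readings at 12 DAF were 8.15, 8.25 and 8.38 in abi3-6, against 5.80, 6.14 and 6.30 in wild type. Every abi3-6 array was higher than every wild-type array, with a gap of over 1 log2 unit at both ages. The change was 2.17 ± 0.18 at 16 DAF, 4.50-fold (limma adjusted p = 9.21e-08), and 2.18 ± 0.18 at 12 DAF, 4.53-fold (limma adjusted p = 2.34e-07). At 16 DAF 8.56% of the probe sets tested were as far up, and at 12 DAF 3.58%. The genotype change of MCCB did not pass a test of a difference between the ages, at -0.0078 ± 0.25 with a 95% interval of -0.54 to 0.53.

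MCCA codes for the alpha subunit, which carries the biotin. At 16 DAF it read 6.66, 6.97 and 7.00 in abi3-6, against 8.20, 8.12 and 8.43 in wild type, and the groups did not overlap. The change was -1.37 ± 0.18, 2.59-fold lower in abi3-6 (limma adjusted p = 1.21e-05), and 11.1% of probe sets tested were as far down. Its 12 DAF arrays read 6.79, 7.01 and 6.73 in abi3-6, against 6.67, 7.27 and 7.28 in wild type. These groups overlapped, and wild-type replicate 1 lay below all 3 abi3-6 arrays. The change of -0.23 ± 0.18 did not pass (limma adjusted p = 0.305, 95% interval -0.62 to 0.16). Without wild-type replicate 1 of 12 DAF it was -0.43 and passed (limma adjusted p = 0.0418). The genotype change of MCCA differed between the ages by -1.14 ± 0.26 (limma adjusted p = 0.00294), where 40.1% of probe sets passed that test, 21.2% with a positive and 18.9% with a negative difference.

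ETFALPHA codes for one subunit of the flavoprotein that accepts electrons from the dehydrogenases. At 16 DAF it read 6.68, 6.87 and 7.04 in abi3-6, against 4.27, 4.87 and 5.15 in wild type. The groups were over 1 log2 unit apart at their nearest arrays. The change was 2.10 ± 0.21, 4.29-fold higher in abi3-6 (limma adjusted p = 7.75e-07), and 8.99% of probe sets tested were as far up. At 12 DAF the values were 7.01, 6.97 and 7.08 in abi3-6, against 6.39, 6.78 and 6.21 in wild type. The groups did not overlap there either, as for 61.9% of probe sets at that age, though wild-type replicate 2 came close. The change was 0.56 ± 0.21, 1.47-fold (limma adjusted p = 0.0390). That call at 12 DAF was marginal. It was lost without wild-type replicate 1 (0.52, adjusted p = 0.0924), wild-type replicate 3 (0.44, adjusted p = 0.143), or abi3-6 replicate 1 (0.56, adjusted p = 0.0807), 2 (0.58, adjusted p = 0.0714) or 3 (0.53, adjusted p = 0.0981) of that age, by the same limma test. It was also lost after median centring (0.44, limma adjusted p = 0.0925). The genotype change was larger at 16 DAF than at 12 DAF by 1.54 ± 0.30 (limma adjusted p = 0.001).

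ETFQO codes for the membrane enzyme that passes the electrons to ubiquinone. At 16 DAF it read 6.31, 6.55 and 6.13 in abi3-6, against 8.10, 7.88 and 8.18 in wild type. The lowest wild-type array was over 1 log2 unit above the highest abi3-6 array. The change was -1.73 ± 0.15, 3.31-fold lower in abi3-6 (limma adjusted p = 1.85e-07), and 7.59% of probe sets tested were as far down. At 12 DAF it read 7.23, 6.88 and 6.93 in abi3-6, against 7.33, 7.29 and 7.34 in wild type. The groups did not overlap, as was the case for 61.9% of probe sets at that age, but the change of -0.31 ± 0.15 did not pass (limma adjusted p = 0.104, 95% interval -0.63 to 0.02). After median centring it was -0.43 and passed (limma adjusted p = 0.0305). The genotype change differed between the ages by -1.42 ± 0.21 (limma adjusted p = 0.000139).

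ETFBETA, the partner subunit of ETFALPHA, is described beside it because both are needed for the flavoprotein. At 16 DAF ETFBETA read 7.52, 7.59 and 7.37 in abi3-6, against 7.54, 7.49 and 7.44 in wild type. The readings at 12 DAF were 7.40, 7.57 and 7.46 in abi3-6, against 7.46, 7.60 and 7.13 in wild type. The genotypes overlapped at both ages. The change was 0.0028 at 16 DAF (95% interval -0.30 to 0.31) and 0.08 at 12 DAF (95% interval -0.23 to 0.38), and neither passed as deposited. After median centring the 16 DAF change was -0.36 ± 0.15 (limma adjusted p = 0.0437), while the median change of all probe sets tested was -0.39. After quantile normalization the change of ETFBETA was 0.03 ± 0.14 (limma adjusted p = 0.878). The absence of a call at that age thus held under quantile normalization and not under median centring.

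Levels of different probe sets cannot be compared with each other, but the difference between 2 genes on the same array can be followed from group to group, and any scaling of a whole array drops out of it. MCCB minus MCCA was 1.44 ± 0.10 in abi3-6 and -2.10 ± 0.29 in wild type at 16 DAF (SD, n = 3 arrays each). At 12 DAF the same difference was 1.42 ± 0.21 in abi3-6 and -0.99 ± 0.13 in wild type. The genotype shift in this difference was 3.54 ± 0.18 (SE), 11.7-fold, at 16 DAF and 2.41 ± 0.14, 5.31-fold, at 12 DAF. Each had an exact two-sided permutation p of 0.1, the smallest that 3 arrays against 3 allow.

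ETFALPHA minus ETFBETA was -0.63 ± 0.27 in abi3-6 and -2.73 ± 0.50 in wild type at 16 DAF, and at 12 DAF -0.45 ± 0.12 in abi3-6 and -0.94 ± 0.12 in wild type. The shift was 2.10 ± 0.33, 4.28-fold, at 16 DAF and 0.48 ± 0.10, 1.40-fold, at 12 DAF. ETFALPHA minus ETFQO shifted further, by 3.83 ± 0.33 or 14.2-fold at 16 DAF and by 0.87 ± 0.21 or 1.82-fold at 12 DAF. In all these shifts the 3 abi3-6 arrays lay above the 3 wild-type arrays, again with the exact two-sided permutation p of 0.1 that is the smallest possible.

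**Figure D2:**
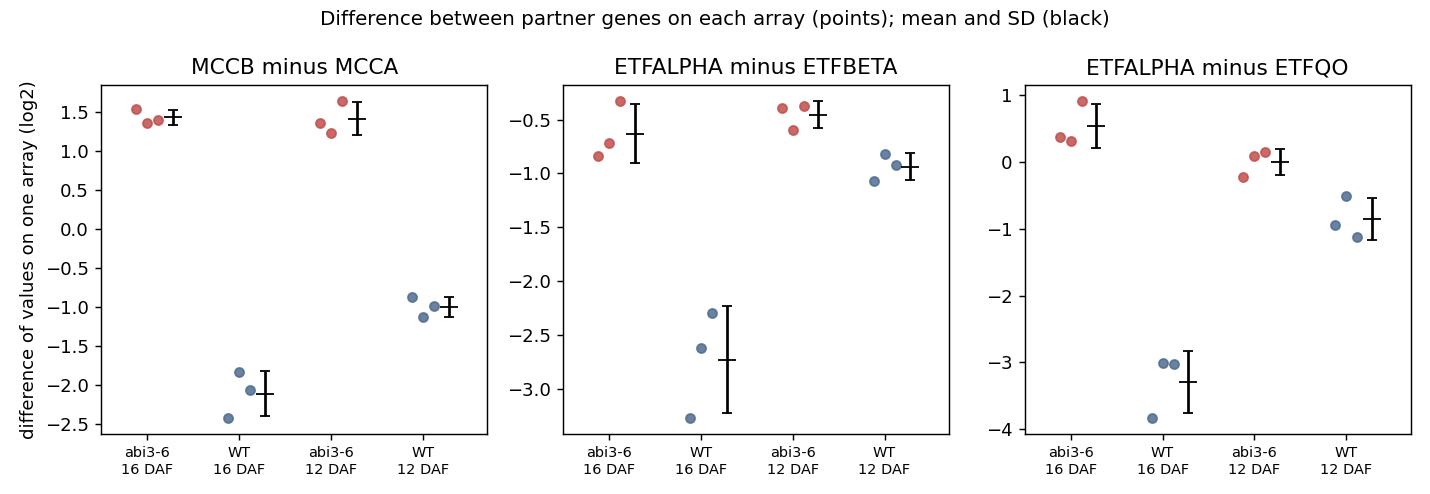
Difference between the log2 values of 2 genes on the same array (vertical axes, a scale for each panel), by group. Points are arrays (red abi3-6, blue wild type), and the black marks are the mean and SD of 3 arrays. MCCB minus MCCA is 1.44 in abi3-6 and -2.10 in wild type at 16 DAF, and for all 3 pairs the wild-type arrays of 16 DAF lie lowest.

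The age comparison asks how the genes change as the seed of each genotype matures. In wild type 3 of the 4 genes changed between 12 and 16 DAF, MCCA and ETFQO upward and ETFALPHA downward, where 62.4% of probe sets passed, 32.0% higher and 30.4% lower. The ages did not overlap for these 3, as for 66.4% of probe sets in wild type. In abi3-6 only ETFQO of the 4 passed, and it fell, where 50.6% of probe sets passed, 27.1% higher and 23.5% lower. Its ages did not overlap, as for 63.4% of probe sets in abi3-6. Both age comparisons use the same arrays as the genotype comparisons, so they do not stand apart from them. Of the calls between the ages in wild type, 51.3% were higher at 16 DAF as deposited, 63.8% after median centring and 54.8% after quantile normalization.

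MCCA averaged 8.25 ± 0.16 at 16 DAF and 7.07 ± 0.35 at 12 DAF in wild type (SD, n = 3 each), and rose by 1.18 ± 0.18, 2.26-fold (limma adjusted p = 6.22e-05). In abi3-6 it averaged 6.88 ± 0.19 at 16 DAF and 6.84 ± 0.15 at 12 DAF, a change of 0.04 ± 0.18 that did not pass (limma adjusted p = 0.889). ETFALPHA averaged 4.76 ± 0.45 at 16 DAF and 6.46 ± 0.29 at 12 DAF in wild type, and fell by 1.70 ± 0.21, 3.24-fold (limma adjusted p = 8.08e-06). In abi3-6 it averaged 6.86 ± 0.18 at 16 DAF and 7.02 ± 0.05 at 12 DAF, a change of -0.16 ± 0.21 that did not pass (limma adjusted p = 0.568).

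ETFQO was the gene of the 4 with age changes that passed in both genotypes and opposed each other. It averaged 8.05 ± 0.16 at 16 DAF and 7.32 ± 0.03 at 12 DAF in wild type, a rise of 0.73 ± 0.15, 1.66-fold (limma adjusted p = 0.00069). In abi3-6 it averaged 6.33 ± 0.21 at 16 DAF and 7.02 ± 0.19 at 12 DAF, a change of -0.69 ± 0.15, 1.61-fold lower (limma adjusted p = 0.00174). MCCB did not pass in either genotype, with changes of 0.06 ± 0.18 in abi3-6 (limma adjusted p = 0.813) and 0.06 ± 0.18 in wild type (limma adjusted p = 0.768). Its 95% intervals, -0.32 to 0.44 in abi3-6 and -0.31 to 0.44 in wild type, hold for the values as deposited. After median centring the wild-type change of MCCB was 0.29 ± 0.17 and did not pass either (limma adjusted p = 0.146).

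**Figure D3:**
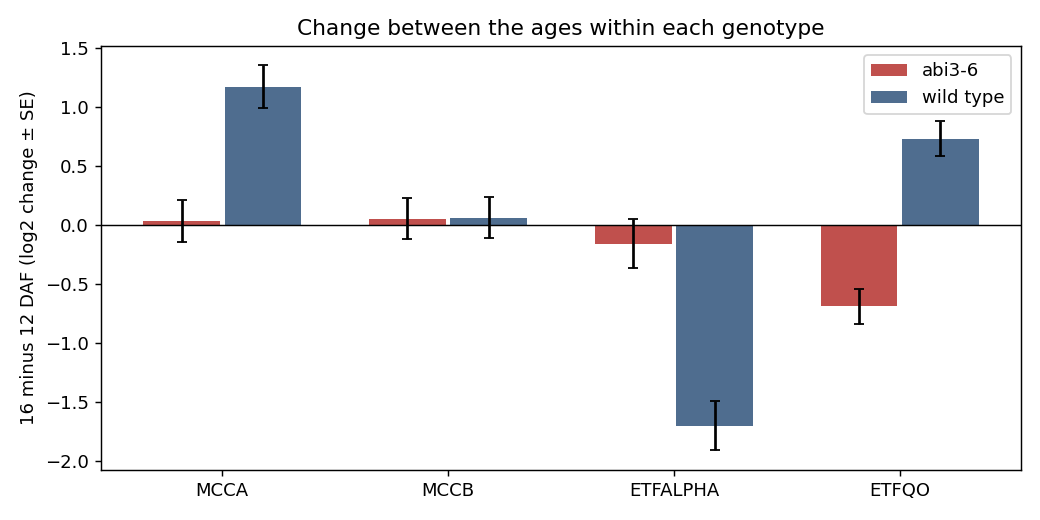
Change from 12 to 16 DAF (16 minus 12 DAF, log2, vertical axis) of MCCA, MCCB, ETFALPHA and ETFQO in abi3-6 (red) and in wild type (blue). Bars are limma estimates from 3 arrays a group and error bars are SE. ETFQO changes by -0.69 in abi3-6 and by 0.73 in wild type, and MCCB by 0.06 in each.

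The order of the group means differed from gene to gene. For MCCA, wild type at 16 DAF was highest at 8.25, and the other 3 groups averaged between 6.84 and 7.07 with arrays that overlapped. For ETFQO the order was wild type at 16 DAF, wild type at 12 DAF, abi3-6 at 12 DAF and abi3-6 at 16 DAF, and of neighbours in it the genotypes at 12 DAF did not pass the test. For MCCB both abi3-6 groups, at 8.32 and 8.26, lay above both wild-type groups, at 6.15 and 6.08, and the ages did not differ within a genotype beyond their spread. For ETFALPHA wild type at 16 DAF was lowest at 4.76, below wild type at 12 DAF at 6.46, and the abi3-6 means of 6.86 and 7.02 did not differ beyond their spread.

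Probe sets with the most similar pattern over the 12 arrays were found by Pearson's r among genes whose range of group means was 0.5 to 2 times that of the gene compared. The 12 arrays fall into 4 groups, so r mostly follows the group means and carries no test. For MCCA these were AT4G25620, AT4G29790 and AT5G51340, with r of 0.981, 0.978 and 0.975 among 5154 candidates. For ETFQO they were AT1G64330, LUL1 and AT3G55430, with r of 0.976, 0.976 and 0.975 among 4847 candidates. For ETFALPHA they were AT1G11670, AT1G76400 and AT1G14710, with r of 0.989, 0.984 and 0.983 among 4106 candidates. For MCCB they were AT3G18800, AT4G29270 and AT5G06660, with r of 0.988, 0.983 and 0.983 among 4139 candidates. Of the neighbours of MCCB, AT3G18800 and AT4G29270 had wild-type means below the dim limit of 3.16 at both ages.

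Around the carboxylase, 6 of the 14 loci listed for leucine breakdown had a probe set of their own. At 16 DAF, 2 were higher in abi3-6, 1 was lower and 3 did not pass, with a median change of 0.25, against -0.03 over all probe sets tested. At 12 DAF, 3 were higher, 1 was lower and 2 did not pass, with a median of 0.18, against -0.0033 over all probe sets. Over all probe sets tested, 35.6% were higher and 34.6% lower at 16 DAF, and 27.1% higher and 23.7% lower at 12 DAF. MCCB and MCCA had the changes of the greatest size at 16 DAF among the 6 leucine loci read. Both were chosen with earlier results of these data known, so this rank carries no test.

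IVD, the dehydrogenase just before the carboxylase, read 7.55, 7.62 and 7.29 in abi3-6, against 6.77, 7.26 and 7.13 in wild type at 16 DAF. Its 12 DAF arrays read 7.13, 7.39 and 7.48 in abi3-6, against 6.47, 6.85 and 6.38 in wild type. The groups did not overlap at either age, as for 74.9% of probe sets at 16 DAF and 61.9% at 12 DAF. At 16 DAF the nearest arrays lay close together, at 7.29 in abi3-6 and 7.26 in wild type. The change was 0.44 ± 0.18 at 16 DAF (limma adjusted p = 0.0399) and 0.77 ± 0.18 at 12 DAF (limma adjusted p = 0.00253). The call at 16 DAF was lost after median centring (0.08, limma adjusted p = 0.714) and in a fit of the 2 groups alone (0.44, limma adjusted p = 0.051). It was also lost without wild-type replicate 1 (0.29) or 3 (0.47) of 16 DAF, abi3-6 replicate 1 (0.40) or 2 (0.37) of 16 DAF, or abi3-6 replicate 2 (0.44) of 12 DAF.

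The other 3 loci of the leucine list bear only a locus number in the annotation tables. AT5G09300 had a genotype change of 0.28 ± 0.15 at 16 DAF that did not pass (limma adjusted p = 0.111). It read 8.99, 9.14 and 9.11 in abi3-6 at 12 DAF, against 9.37, 9.58 and 9.65 in wild type, a change of -0.45 ± 0.15 (limma adjusted p = 0.0248). That call was lost without wild-type replicate 2 (-0.43) or 3 (-0.39), or abi3-6 replicate 1 (-0.40) or 3 (-0.47), of 12 DAF. AT5G09300 fell with age in both genotypes, by 2.09 ± 0.15 in abi3-6 (limma adjusted p = 1.09e-07) and by 2.82 ± 0.15 in wild type (limma adjusted p = 2.58e-09).

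AT4G16800 also fell with age in both, by 1.02 ± 0.17 in abi3-6 (limma adjusted p = 0.000196) and by 0.66 ± 0.17 in wild type (limma adjusted p = 0.0034). Its genotype change was 0.15 ± 0.17 at 16 DAF, which did not pass (limma adjusted p = 0.425), and 0.51 ± 0.17 at 12 DAF (limma adjusted p = 0.0215). The call at 12 DAF was lost after median centring (0.39) and without wild-type replicate 2 (0.49) or 3 (0.47), or abi3-6 replicate 1 (0.51) or 2 (0.49), of 12 DAF. AT2G26800 passed in neither genotype comparison, with 0.21 ± 0.18 at 16 DAF (limma adjusted p = 0.289) and -0.15 ± 0.18 at 12 DAF (limma adjusted p = 0.493). In the leucine list as a whole, 2 of 6 fell and none rose with age in abi3-6, and 3 fell and 2 rose in wild type. Over all probe sets tested, 23.5% fell and 27.1% rose in abi3-6, and 30.4% fell and 32.0% rose in wild type.

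Around the flavoprotein, all 5 loci listed for electron transfer could be read: ETFALPHA, ETFBETA, ETFQO and the donor enzymes IVD and D2HGDH. At 16 DAF, 2 were higher in abi3-6, 2 lower and 1 did not pass, with a median of 0.0028, against -0.03 over all probe sets. At 12 DAF, 2 were higher and 3 did not pass, with a median of 0.08. The shares of all probe sets tested were 35.6% higher and 34.6% lower at 16 DAF, and 27.1% higher and 23.7% lower at 12 DAF. D2HGDH read 7.17, 7.70 and 7.20 in abi3-6, against 8.03, 7.79 and 8.26 in wild type at 16 DAF. The nearest arrays lay close together, and the change was -0.67 ± 0.19, 1.59-fold lower (limma adjusted p = 0.00563). At 12 DAF the values were 8.21, 8.01 and 8.21 in abi3-6, against 8.02, 8.51 and 8.43 in wild type, a change of -0.18 ± 0.19 that did not pass (limma adjusted p = 0.448). The 2 higher at 16 DAF were IVD and ETFALPHA, and the 2 lower were D2HGDH and ETFQO. That balance held as deposited and not after median centring, where IVD no longer passed (0.08, limma adjusted p = 0.714) and ETFBETA passed as lower (-0.36).

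**Figure D4:**
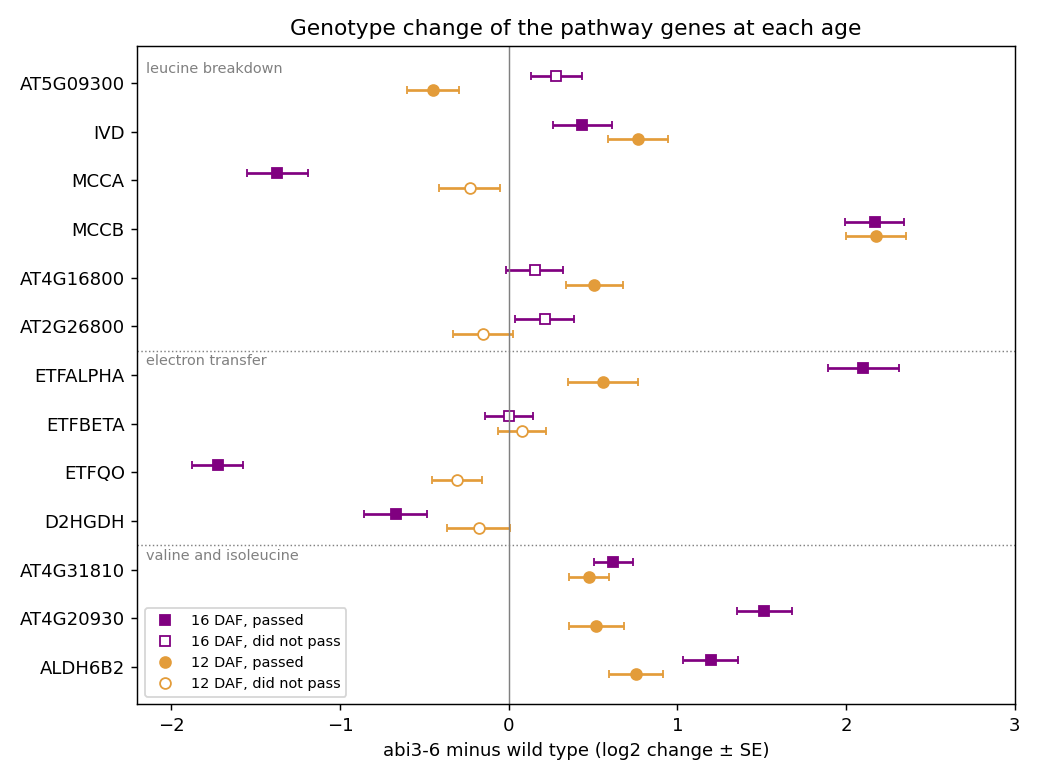
Genotype change (abi3-6 minus wild type, log2, horizontal axis) of the measured genes of leucine breakdown, electron transfer and valine and isoleucine breakdown, one gene per line. Purple squares are 16 DAF, orange circles 12 DAF, bars are SE and filled symbols passed the limma test. MCCB lies at 2.17 and 2.18, ETFALPHA at 2.10 and 0.56, MCCA at -1.37 and -0.23 and ETFQO at -1.73 and -0.31.

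Valine and isoleucine share the early steps of breakdown with leucine but not the carboxylase. Of 4 loci listed for their later steps, 3 could be read, and all 3 were higher in abi3-6 at both ages, with a median change of 1.20 at 16 DAF and 0.52 at 12 DAF. Of all probe sets tested, 35.6% were higher in abi3-6 at 16 DAF and 27.1% at 12 DAF. ALDH6B2, methylmalonate semialdehyde dehydrogenase, read 9.00, 9.30 and 8.78 in abi3-6, against 7.92, 7.73 and 7.84 in wild type at 16 DAF. At 12 DAF it read 8.84, 9.15 and 8.79 in abi3-6, against 8.30, 8.01 and 8.21 in wild type. The genotypes did not overlap, as for 74.9% of probe sets at 16 DAF and 61.9% at 12 DAF. The changes of ALDH6B2 were 1.20 ± 0.16 at 16 DAF (limma adjusted p = 1.48e-05) and 0.76 ± 0.16 at 12 DAF (limma adjusted p = 0.00147). AT4G20930 changed by 1.52 ± 0.16 at 16 DAF (limma adjusted p = 1.74e-06) and by 0.52 ± 0.16 at 12 DAF (limma adjusted p = 0.0171). Its call at 12 DAF was lost after median centring (0.40) and without abi3-6 replicate 3 of 12 DAF (0.46). AT4G31810 changed by 0.62 ± 0.12 at 16 DAF (limma adjusted p = 0.000305) and by 0.48 ± 0.12 at 12 DAF (limma adjusted p = 0.00384). Its call at 16 DAF was lost after median centring (0.26).

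Electrons enter the ubiquinone pool from other enzymes besides ETFQO, among them the external NAD(P)H dehydrogenases of the NDB family and succinate dehydrogenase. Of 18 loci listed, 8 had a probe set of their own, and NDB4 and SDH1-2 of these were dim. Of the 6 tested, 5 were higher in abi3-6 and 1 lower at 16 DAF, with a median change of 1.45, and 4 were higher and 1 lower at 12 DAF, with a median of 0.72. Of all probe sets tested, 35.6% were higher and 34.6% lower at 16 DAF, and 27.1% higher and 23.7% lower at 12 DAF. The succinate dehydrogenase genes SDH2-1, SDH2-2 and SDH1-1 were higher at both ages, by 1.52 ± 0.18, 1.39 ± 0.15 and 0.38 ± 0.14 at 16 DAF (limma adjusted p = 5.36e-06, 1.62e-06 and 0.022). At 12 DAF they were higher by 0.68 ± 0.18, 1.06 ± 0.15 and 0.76 ± 0.14 (limma adjusted p = 0.00712, 4.94e-05 and 0.0004). The call of SDH1-1 at 16 DAF was lost after median centring (0.02) and without replicate 1 of wild type (0.29) or of abi3-6 (0.31) at 16 DAF.

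NDB2 was the one gene of these 6 that was lower in abi3-6, as ETFQO was at 16 DAF. At 16 DAF NDB2 read 7.10, 7.01 and 7.23 in abi3-6, against 9.56, 9.36 and 9.32 in wild type, a change of -2.30 ± 0.18 (limma adjusted p = 5.48e-08). The readings at 12 DAF were 6.66, 6.20 and 5.88 in abi3-6, against 7.41, 7.27 and 7.46 in wild type, a change of -1.13 ± 0.18 (limma adjusted p = 0.000124). NDB1 was higher in abi3-6, by 1.85 ± 0.19 at 16 DAF (limma adjusted p = 8.74e-07) and by 1.14 ± 0.19 at 12 DAF (limma adjusted p = 0.000191). Its wild-type arrays lay not far above the dim limit of 3.16, at 3.27 to 3.50 at 16 DAF and 3.58 to 3.93 at 12 DAF.

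NDB3 stood above the dim limit in one group. It read 7.74, 7.54 and 7.88 in abi3-6 at 16 DAF, against 2.98, 2.92 and 2.94 in wild type. Its 12 DAF arrays read 2.93, 2.78 and 3.04 in abi3-6, against 2.86, 3.04 and 2.48 in wild type, all below the limit of 3.16. NDB3 in abi3-6 at 16 DAF was at least 23.5-fold higher than in wild type of that age (limma adjusted p = 8.29e-12). A probe set that is dim has a bound only, taken here as the dim limit.

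**Figure D5:**
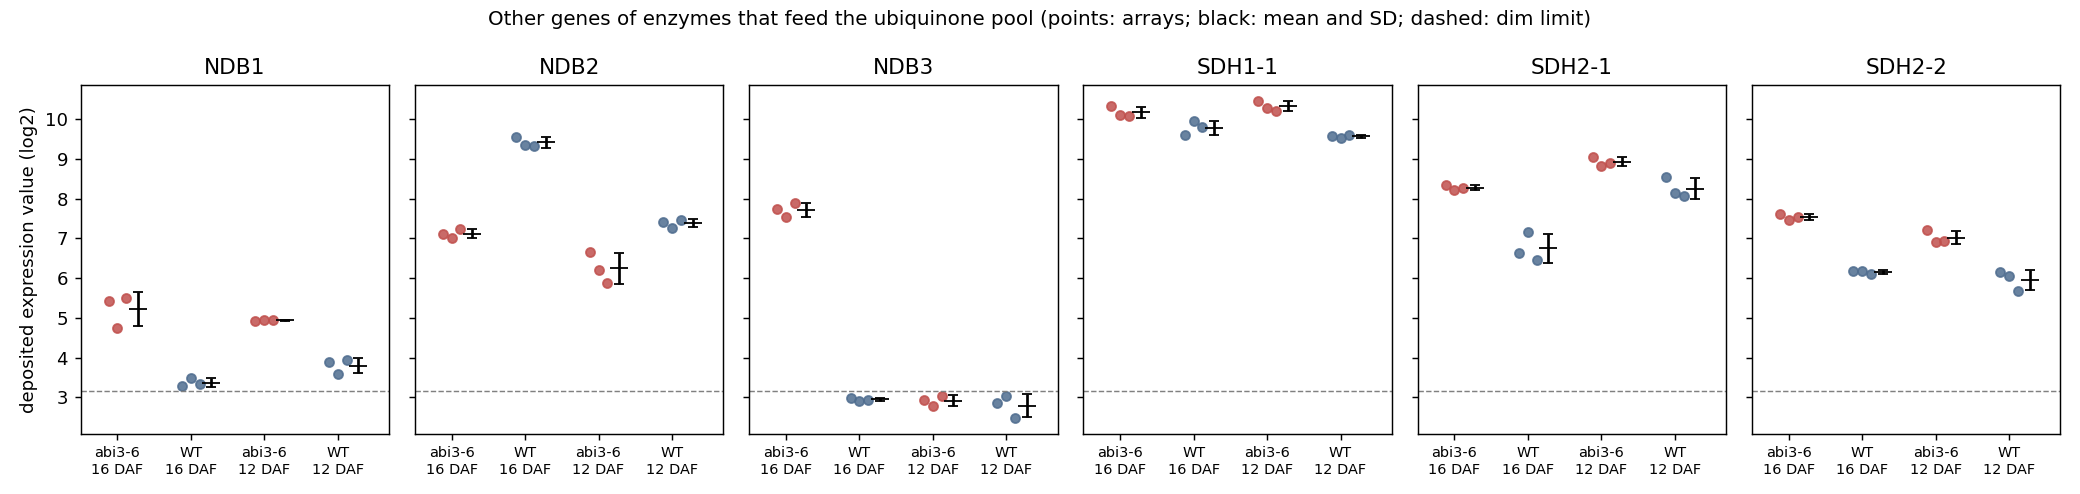
Deposited expression value (log2, vertical axis, not starting at 0) of 6 genes of other enzymes that pass electrons to ubiquinone, on each array. Points are arrays (red abi3-6, blue wild type), black marks are the mean and SD of 3 arrays, and the dashed line is the dim limit of 3.16. NDB3 lies at 7.54 to 7.88 in abi3-6 at 16 DAF and below the limit in the other groups, and NDB2 lies lower in abi3-6 than in wild type at both ages.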

How the data were processed

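RNA of dissected seeds was measured on 12 Affymetrix arrays with 22810 probe sets each, 64 of them controls. The deposited values are on a log2 scale, as judged from their range of 1.49 to 15.9. The submitters' processing notes name GCOS 1.3 and GCRMA 2.0.0, with role and order not given in the sources used here, and whether the authors centred the arrays is unknown. Array brightness has no counting depth, so the number of arrays limits the precision. Groups came from the genotype and age labels, and labels give replicates as separate batches of plants.

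Of 22746 probe sets other than controls, 13513 had 1 annotated gene, 503 had several and 8730 are unnamed here. Names follow the platform annotation, matched for 13508 probe sets to the RefSeq gene table of TAIR10.1, and no coordinates or sequences are given. A probe set was kept if 3 or more of 12 arrays lay at or above a dim limit of 3.16, set at percentile 40 of the whole table. This left 14873 to test and 7873 as dim. One model with a mean for each of the 4 groups was fitted by lmFit and eBayes of the R package limma (3.58.1, under R 4.3.3). Tests were two-sided, with Benjamini-Hochberg adjustment over the 14873. A trial run on simulated data changed a far smaller share of probe sets than passed here, so it does not vouch for the calls. Within-array differences were tested with exact permutations in scipy 1.17.1. A probe set below the limit on all arrays of a group gives only a bound.

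The 4 genes are described in full, all measured loci of the pathway lists may be named, and 3 pattern neighbours are given per gene. The members and lists were chosen with earlier results of these data known. Of 87 listed loci, 28 had a probe set of their own and 26 were tested. None of the 11 loci for biotin enzymes could be read. The alternatives were no filter, a limit at the 60th percentile, median centring, quantile normalization, array weights, a variance trend, the replicate number as a block, the 2 compared groups alone, and each array left out in turn.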

Additional observations from a re-analysis of the deposited data

Results flagged for a closer look

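The genotype change differed between the ages, by a limma test of that difference, for 13 of the 26 pathway genes tested. The same test was passed by 40.1% of all probe sets tested. The values that follow are the change at 16 DAF minus the change at 12 DAF, on the log2 scale. Among the 4 genes described, it was 1.54 for ETFALPHA, -1.14 for MCCA and -1.42 for ETFQO. These 3 held under all 19 alternatives, and for MCCB the difference did not pass.

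Of the genes beside them, it was 0.73 for AT5G09300, 1.00 for AT4G20930, 0.77 for AT4G33150 (lysine-ketoglutarate reductase), -0.58 for ALDH7B4 (an aldehyde dehydrogenase), 0.72 for AT5G38710, 0.71 for NDB1, -1.16 for NDB2, 4.65 for NDB3, 0.84 for SDH2-1 and 2.55 for bZIP44. The values of NDB3, dim in 3 of the 4 groups, and of AT5G38710, dim on all abi3-6 arrays, are fitted values below the dim limit on one side and do not measure the size of the difference. Median centring ended the call for AT5G09300 (0.49), AT4G33150 (0.53), AT5G38710 (0.48), NDB1 (0.48) and SDH2-1 (0.60). Leaving out one array also ended it for AT4G33150 (abi3-6 replicate 1 of 12 DAF, 0.70, and wild-type replicate 3 of 16 DAF, 0.67) and for SDH2-1 (wild-type replicate 3 of 16 DAF, 0.69). For ALDH7B4 it ended without abi3-6 replicate 1 (-0.57) or 3 (-0.55) of 12 DAF, wild-type replicate 3 (-0.54) or abi3-6 replicate 3 (-0.47) of 16 DAF. For AT5G38710 it ended without abi3-6 replicate 1 of 12 DAF (0.67) or wild-type replicate 1 (0.64) or 2 (0.62) of 16 DAF. For NDB1 it ended in 9 of 12 such fits, with values of 0.57 to 0.72.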

How the results depend on the processing

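At 16 DAF the genotype calls of the 4 genes held under all 20 alternatives, with changes of -1.73 to -1.26 for MCCA, 1.81 to 2.28 for MCCB, 1.74 to 2.29 for ETFALPHA and -2.09 to -1.62 for ETFQO. The age calls in wild type held too, at 0.97 to 1.40 for MCCA, -1.89 to -1.45 for ETFALPHA and 0.67 to 0.96 for ETFQO, as did that of ETFQO in abi3-6, at -0.80 to -0.58. Calls at 12 DAF depended on the setting, except that of MCCB (2.04 to 2.29). ETFALPHA no longer passed with no filter (0.56, limma adjusted p = 0.0719) or after median centring (0.44), and ranged from 0.44 to 0.72 with one array left out. ETFQO passed after centring (-0.43). MCCA ranged from -0.43 to -0.13 with one array left out. The number of the 4 genes called at 12 DAF was then 1 with no filter and 1 or 2 with one array left out, against 2. ETFBETA at 16 DAF turned to -0.36 after centring and was 0.03 after quantile normalization. The cause was not tested. For the other named genes, counting each result once under each alternative, a call was lost 84 times and gained 32 times. With centring, 36.3% of the calls for a difference between the ages were positive, against 52.8% as deposited and 50.8% after quantile normalization. Samples of the same replicate number correlated at -0.02 to 0.16 around their group means, and over 0.1 in 3 of 18 pairs. Those of different numbers correlated at -0.13 to 0.08. These values are weak, and whether samples of one number share more than the number is not known. With the replicate number as a block, the SE at 16 DAF was 0.14 for MCCB, against 0.18, and 0.16 for ETFQO, against 0.15. With the replicate block 10456 probe sets passed at 16 DAF, against 10439, and no call of the 4 genes changed.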

Other observations

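Breakdown of other amino acids was read through 4 of 14 listed loci. In abi3-6, 3 of them were higher and 1 lower at both ages, with a median change of 0.85 at 16 DAF and 0.93 at 12 DAF, where 35.6% of all probe sets were higher and 34.6% lower at 16 DAF, and 27.1% higher and 23.7% lower at 12 DAF. At 16 DAF the call of ALDH7B4 was lost after median centring (0.14, limma adjusted p = 0.391). That of AT5G38710 at 16 DAF (-0.45) was lost after quantile normalization (-0.43) and without wild-type replicate 3 (-0.28) or abi3-6 replicate 1 (-0.43) or 3 (-0.43), and its bound there is at least 1.01-fold lower. DELTA-OAT, ornithine aminotransferase, read 10.44, 10.42 and 10.42 in abi3-6, against 9.06, 9.29 and 9.31 in wild type at 16 DAF. At 12 DAF it read 9.11, 9.30 and 9.30 in abi3-6, against 7.68, 7.85 and 7.59 in wild type. DELTA-OAT was thus higher in abi3-6 by 1.20 ± 0.13 at 16 DAF (limma adjusted p = 1.73e-06) and by 1.53 ± 0.13 at 12 DAF (limma adjusted p = 3.79e-07), and rose with age in both genotypes. AT4G33150, lysine-ketoglutarate reductase/saccharopine dehydrogenase, was higher by 1.56 ± 0.17 at 16 DAF (limma adjusted p = 1.79e-06) and by 0.79 ± 0.17 at 12 DAF (limma adjusted p = 0.00153). AT5G38710 was dim on all abi3-6 arrays, and at 12 DAF it was at least 2.04-fold lower than in wild type (limma adjusted p = 3.96e-05).

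Of 11 loci listed for the response to starvation, the transcription factor genes bZIP44 and BZIP53 could be read. At 16 DAF bZIP44 read 9.90, 9.85 and 9.75 in abi3-6, against 7.19, 6.56 and 6.72 in wild type, higher by 3.01 ± 0.18 (limma adjusted p = 3.3e-09). In wild type it fell with age by 2.98 ± 0.18 (limma adjusted p = 6.16e-09). At 12 DAF the genotype change of bZIP44 was 0.46 ± 0.18 (limma adjusted p = 0.0452). That call was lost with no filter, after median centring (0.33), after quantile normalization (0.31) and with array weights (0.37). BZIP53 was lower in abi3-6 at 16 DAF, by a change of -0.85 ± 0.18 (limma adjusted p = 0.000656). Its change of -0.24 ± 0.18 at 12 DAF did not pass (limma adjusted p = 0.265). Of 11 loci listed for leucine synthesis, ATBCAT-5 could be read, with a change of -0.50 ± 0.13 at 16 DAF (limma adjusted p = 0.0034).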
